A study of Rattus norvegicus with 58 samples.

Results

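The genes described here are Ccnd1, which encodes cyclin D1, and 9 other regulators of the G1 phase of the cell cycle: Ccnd2, Ccnd3, Ccne1, Ccne2, Cdk4, Cdk6, Cdkn1b, Myc and Rb1. They were taken as every probe set of the array whose annotation names one of these genes and no other, which gave 14 probe sets for 10 genes, of 31099 probe sets and 14218 singly named genes in all. Ccnd1 had 3 probe sets, Cdkn1b and Ccne2 had 2 each, and the other 7 genes had 1 each. Male Harlan Sprague-Dawley rats had received 4-methylcyclohexanemethanol (MCHM), an alcohol used in coal washing, by gavage for 5 days. Liver and kidney RNA was measured on Affymetrix Rat Genome 230 2.0 arrays in control rats at 0 mg/kg (5 arrays per organ) and at 0.1, 1, 10, 100, 300 and 500 mg/kg (4 arrays per organ and dose), 58 arrays in all. All groups share strain, sex, route and duration, and the labels state no age and no vehicle. Values are the deposited log2 values made with RMA, which summarises the probes of a set on a log2 scale, so that a difference of 1 is a doubling.

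In G1 a cell that has received growth signals makes D-type cyclins, which bind and activate the kinases Cdk4 and Cdk6. These kinases phosphorylate the retinoblastoma protein Rb1, which then releases E2F transcription factors that switch on the genes of DNA replication, among them the E cyclins. Cdkn1b (p27) holds cyclin-dependent kinases in check, and Myc is a growth-induced transcription factor that acts upstream of several of these steps. Adult liver cells are mostly quiescent, and cyclin D1 is the D cyclin best known for its induction when hepatocytes re-enter the cycle after loss of liver mass.

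Array medians lay between 5.26 and 5.38. The organ labels fit the markers: the mean of 5 hepatocyte markers lay between 13.98 and 14.16 on every liver array, and that of 6 kidney tubule markers between 11.31 and 11.90 on every kidney array. On 1 control kidney, replicate 2, the mean of 3 hepatocyte markers was 8.81, where the median over the 29 kidney arrays was 5.57. On 2 kidney arrays, replicate 3 at 300 mg/kg and replicate 3 at 500 mg/kg, the mean of 5 adipose markers was 12.15 and 11.11, and the main kidney results are therefore also given without them. A probe set was tested in an organ where 4 or more of the 29 arrays had it above the array's own 40th percentile, and the brightest such probe set stood for its gene. Cdk6 was above that percentile on 0 of 29 arrays in each organ and was tested in neither. Ccne2 was tested in kidney alone. Thus 8 of the 10 genes were tested in liver, 9 in kidney and 8 in both, each within limma fits over all genes (11264 in liver and 11194 in kidney). In bulk tissue, fewer cells with a transcript and less transcript per cell cannot be told apart.

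Cyclin D1 was the single member called at any dose. On its brightest probe set, 1383075_at, the 4 livers at 500 mg/kg had log2 values of 8.93, 8.34, 8.90 and 8.96, against 9.03, 9.65, 9.98, 9.74 and 10.08 in the 5 control livers. The groups did not overlap, although the highest dosed liver and the lowest control liver lay close together. The level averaged 8.78 ± 0.30 (SD, n = 4) at 500 mg/kg and 9.70 ± 0.41 (SD, n = 5) in controls, a difference of -0.91 (SE 0.22, 95% interval -1.37 to -0.46, limma adjusted p = 0.0409 over all genes tested). On the linear scale this was 53.1% of the control level, with an interval of 38.7% to 72.8%. Of the 8 members tested, 1 was called, while 0.959% of all genes tested were called in this comparison and 0.471% were called lower. Groups that do not overlap were found for 2.89% of all genes in the lower direction. The call rested on 4 and 5 arrays and was lost in 13 of 19 alternative fits. Over all 19 fits the difference was -0.77 to -1.08, with limma adjusted p between 0.0189 and 0.130.

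The other probe sets of Ccnd1 gave smaller differences in the same direction. On 1371150_at the livers at 500 mg/kg had 7.98, 7.67, 7.95 and 7.94, against 8.05, 8.64, 8.90, 8.77 and 9.02 in controls. Here too the groups did not touch, and the difference was -0.79 (SE 0.22). On 1371643_at the values were 8.89, 8.43, 9.06 and 8.77 at 500 mg/kg, against 8.87, 9.25, 9.68, 9.55 and 9.72 in controls. These groups overlapped, because the lowest control liver was below 2 of the dosed livers, and the difference was -0.63 (SE 0.19). In a fit of all 20008 kept liver probe sets, of which 0.65% were called, the adjusted p was 0.0497 for 1383075_at, 0.0907 for 1371150_at and 0.125 for 1371643_at, so that 1 of 3 passed. The same control array, replicate 1, was lowest of the 5 on each probe set, and without it the Ccnd1 difference was -1.08 (adjusted p = 0.0189).

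The 3 probe sets rose and fell together from array to array. Over the 29 liver arrays Pearson's r between pairs lay from 0.972 to 0.981 and Spearman's rho from 0.967 to 0.974, and over the 29 kidney arrays r lay from 0.925 to 0.971 and rho from 0.950 to 0.959. The permutation p was 1e-05 for each of these 6 pairs, the smallest that 100000 permutations can give. Arrays were permuted across doses, so differences between doses enter this r and its p. After each dose group's mean was taken off, r lay from 0.944 to 0.965 in liver and from 0.880 to 0.962 in kidney. With group means left in, leaving out the 2 arrays farthest from the median left r between 0.921 and 0.981. The array-to-array spread of Ccnd1 was therefore shared by its probe sets.

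**Figure D1:**
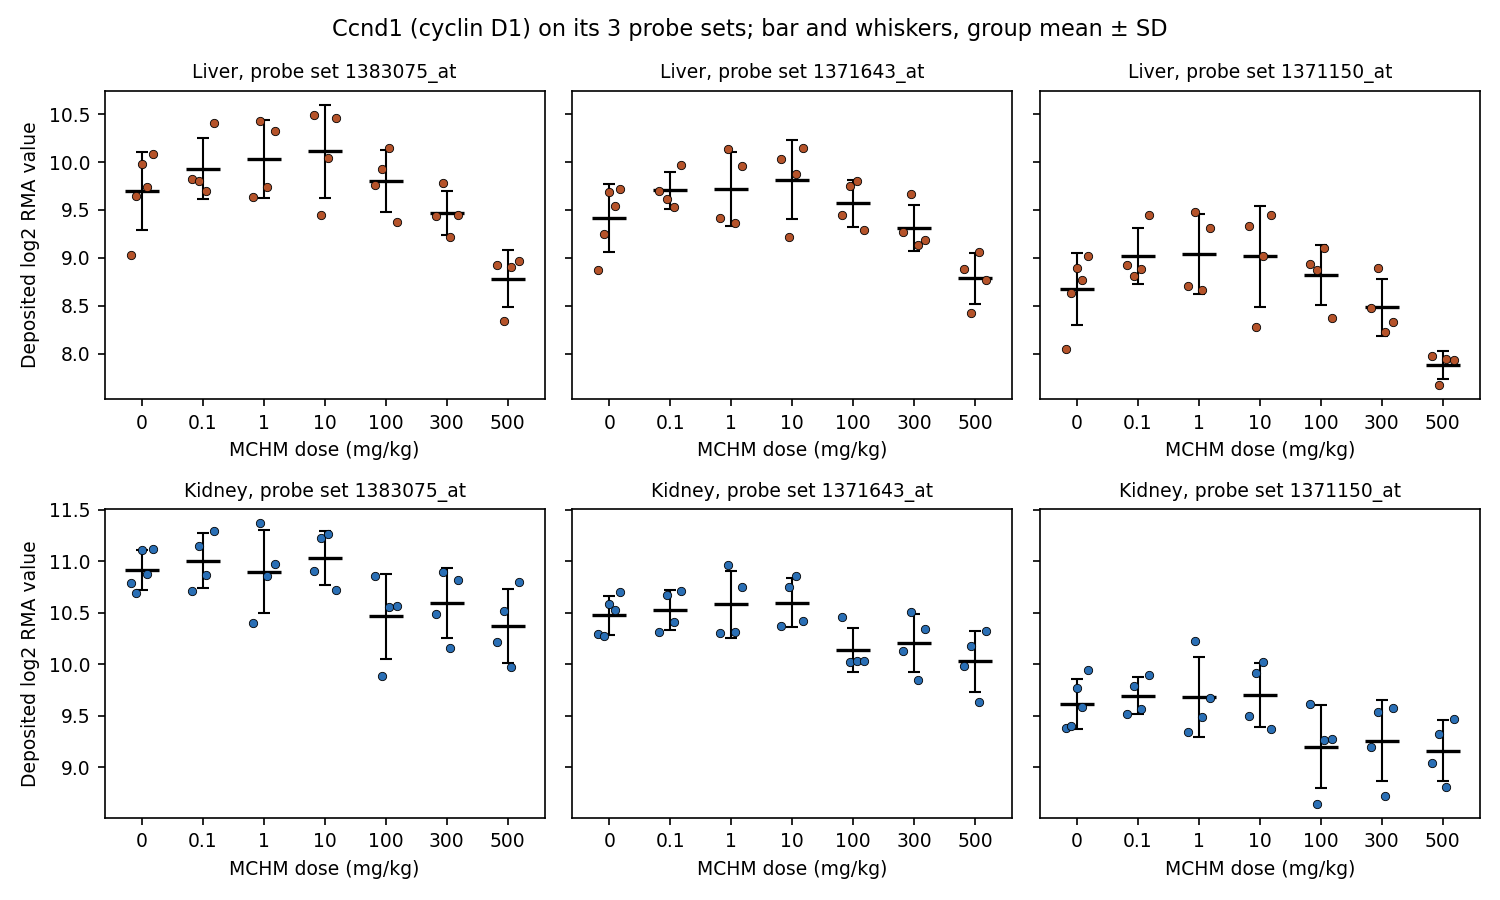
Deposited log2 values (vertical axis) of the 3 Ccnd1 probe sets by MCHM dose in mg/kg (horizontal axis, equal steps), liver above and kidney below; each point is 1 array, the bar is the group mean and the whiskers are 1 SD. The 4 livers at 500 mg/kg lie below every other liver on 1383075_at (highest 8.96 against a lowest of 9.03) and on 1371150_at (7.98 against 8.05), and in kidney each dose group overlaps with the control group on all 3 probe sets.

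Across the liver doses the Ccnd1 level did not fall steadily. The mean on 1383075_at was 9.70 ± 0.41 (SD, n = 5) at 0 mg/kg, 9.93 ± 0.32 at 0.1, 10.03 ± 0.40 at 1, 10.11 ± 0.49 at 10, 9.80 ± 0.32 at 100, 9.47 ± 0.23 at 300 and 8.78 ± 0.30 at 500 mg/kg (SD, n = 4 for each dose). The means at 0.1 to 100 mg/kg lay above that of the controls, by 0.11 to 0.41, with limma adjusted p of 0.795 or more. Ordered by mean, the doses ran 10, 1, 0.1, 100, 0, 300 and 500 mg/kg, and apart from 300 and 500 mg/kg the neighbours in this order were closer together than the larger of their SDs. At 300 mg/kg the livers had 9.44, 9.78, 9.22 and 9.44, within the range of the controls, and differed by -0.23 (SE 0.22, adjusted p = 0.846). The 4 livers at 500 mg/kg lay below all 25 other livers, a position that 0.0977% of all genes (11 of 11264) showed in the lower direction. Set directly against 300 mg/kg, the 500 mg/kg livers were lower by -0.69 (SE 0.23, unadjusted p = 0.0067) and did not overlap with them, but the adjusted p was 0.780, with 0 of 11264 genes called and 1.41% of genes not overlapping in the lower direction.

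A straight line over the dose ranks gave Ccnd1 a slope of -0.13 per step in liver (SE 0.04, adjusted p = 0.0780) and of -0.10 per step in kidney (SE 0.03, adjusted p = 0.141). Neither passed, beside 1.85% of all genes called in liver (1.17% lower and 0.675% higher) and 0.152% in kidney. When the mg/kg value itself replaced the rank, the liver slope was -0.00214 per mg/kg and passed (adjusted p = 0.000243), in a fit that called 7.22% of all genes (4.47% lower). The kidney slope was then -0.00115 per mg/kg (adjusted p = 0.0519), with 1.65% of all genes called. Without the 2 kidney arrays of high adipose transcripts the kidney slope per rank was -0.08 (adjusted p = 0.530), with 0 of 11194 genes called by limma and 781 at an unadjusted p under 0.05.

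Kidney Ccnd1 had values below 0 against controls at the 3 highest doses, and none of the 3 differences passed the test. On 1383075_at the 4 kidneys at 500 mg/kg had 10.21, 10.51, 9.97 and 10.80, against 10.79, 10.69, 11.11, 10.88 and 11.12 in the 5 control kidneys. All 4 were below the control mean, and 1 of them lay within the control range. The difference was -0.54 (SE 0.20, 95% interval -0.95 to -0.13, unadjusted p = 0.0114, adjusted p = 0.350), or -0.41 (adjusted p = 0.705) without the 2 kidney arrays of high adipose transcripts and -0.60 (adjusted p = 0.443) without the control kidney of high hepatocyte transcripts. At 300 mg/kg the kidneys had 10.49, 10.90, 10.16 and 10.82, a difference of -0.32 (SE 0.20, adjusted p = 0.868), or -0.18 without those arrays. At 100 mg/kg they had 10.86, 9.88, 10.56 and 10.56, a difference of -0.45 (SE 0.20, adjusted p = 0.978). In kidney 0 of the 9 tested members were called at any dose; 0.0268% of all genes were called at 500 mg/kg, with 9.58% at an unadjusted p under 0.05, and Ccnd1 was the 1 member under that unadjusted level. Without the 2 kidney arrays of high adipose transcripts 0 of 9 members were called or under it at 500 mg/kg, beside 0.0179% of all genes called.

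The effect of 500 mg/kg on Ccnd1 was not shown to differ between the organs. The liver effect minus the kidney effect was -0.37 (SE 0.31, 95% interval -0.995 to 0.252, adjusted p = 0.822), with 0.122% of all genes called, and -0.50 (adjusted p = 0.788) without the 2 kidney arrays of high adipose transcripts. At 300 mg/kg this contrast was 0.10 (SE 0.31, adjusted p = 0.985), or -0.04 without those arrays. Of the 8 members tested in both organs, 0 were called in either contrast.

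**Figure D2:**
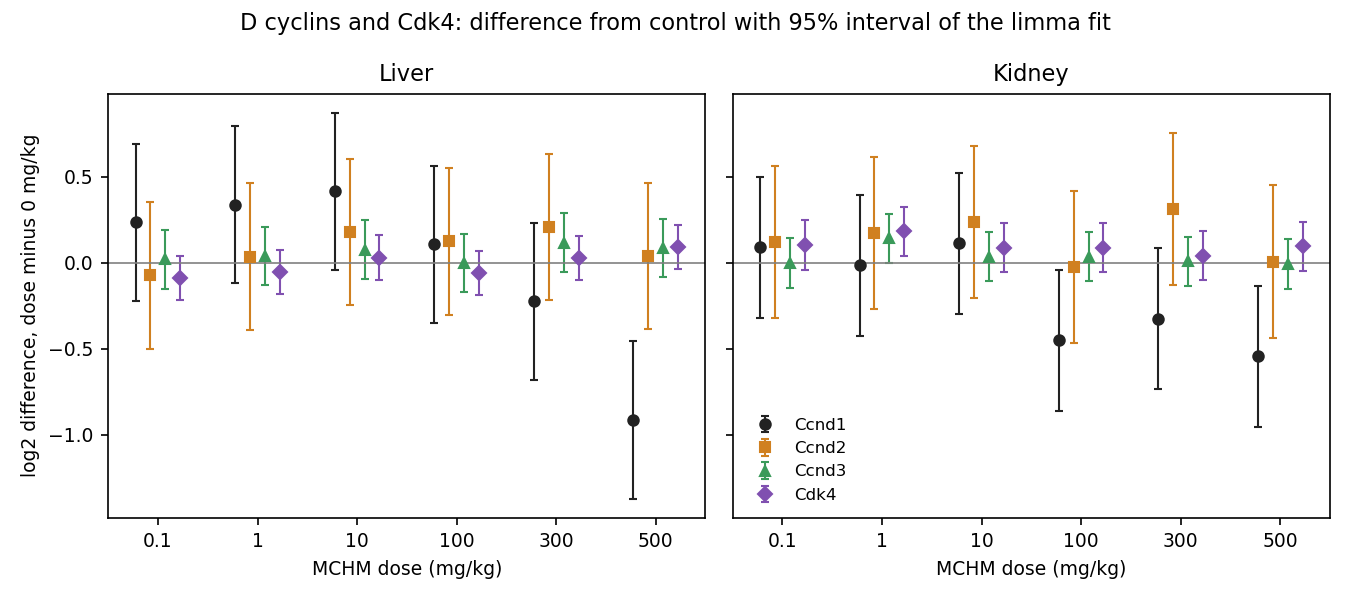
Difference from the control group of the organ on the log2 scale (vertical axis) by MCHM dose in mg/kg (horizontal axis) for Ccnd1, Ccnd2, Ccnd3 and Cdk4; points are differences of group means and bars are 95% intervals of the limma fit. Ccnd1 at 500 mg/kg in liver stands at -0.91, while Ccnd2, Ccnd3 and Cdk4 there stand at 0.04, 0.09 and 0.09 with intervals that include 0.

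The other D cyclins and their kinase did not pass at any dose in either organ. Ccnd2 encodes cyclin D2. In the livers at 500 mg/kg it had 7.77, 8.37, 7.77 and 8.19, against 7.66, 8.15, 8.36, 8.11 and 7.63 in controls, a difference of 0.04 (SE 0.21, 95% interval -0.39 to 0.47). Each group held both high and low livers. In kidney the difference was 0.01 (95% interval -0.44 to 0.45), or 0.11 without the 2 arrays of high adipose transcripts, and intervals of this width do not show that cyclin D2 was unaffected.

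Ccnd3, cyclin D3, varied much less. It had 7.37, 7.46, 7.52 and 7.43 in livers at 500 mg/kg, against 7.36, 7.30, 7.32, 7.37 and 7.45 in controls, a difference of 0.09 (SE 0.08, 95% interval -0.09 to 0.26). All 4 dosed livers lay above the control mean by a small step and overlapped with the controls. In kidney the difference was -0.01 (95% interval -0.15 to 0.14).

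Cdk4, the catalytic partner of the D cyclins, had 8.89, 8.98, 8.96 and 8.95 in livers at 500 mg/kg, against 8.81, 8.75, 8.91, 8.81 and 8.98 in controls. The difference was 0.09 (SE 0.06, 95% interval -0.04 to 0.22, adjusted p = 0.570), and in kidney it was also 0.09 (SE 0.07, 95% interval -0.05 to 0.24, adjusted p = 0.692). All 4 arrays at 500 mg/kg were above the control mean in each organ, within the range of the controls or just over it. Its largest value was in kidney at 1 mg/kg, 0.18 (SE 0.07, unadjusted p = 0.0142, adjusted p = 0.434). Cdk4 was among the steadiest of all liver transcripts, with a within-group SD at the 8.07th percentile of all genes tested.

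Promoter sequences of RefSeq (assembly GRCr8, 300 bases around the start) matched 5 of the 10 members: Ccnd3, Ccne1, Cdk4, Cdkn1b and Rb1. The Ccnd3 window (chr9:20897826-20898125, minus strand) lay well inside the annotated gene (20891696 to 20987199) and not at its upstream end. Positions given for Ccnd3 refer to that inner start. The E-box CACGTG, the sequence that Myc and its partner Max bind, was searched on both strands and was found in 6.42% of 33469 promoters. Of the 5 members only Cdk4 held it, with 3 copies, a number reached or exceeded in 0.0568% of all promoters. The bases before the Cdk4 start are shown because they hold these copies, in capitals, at -203, -183 and -95 from the start (chr7:64771203-64771452, plus strand).
Cdk4 upstream: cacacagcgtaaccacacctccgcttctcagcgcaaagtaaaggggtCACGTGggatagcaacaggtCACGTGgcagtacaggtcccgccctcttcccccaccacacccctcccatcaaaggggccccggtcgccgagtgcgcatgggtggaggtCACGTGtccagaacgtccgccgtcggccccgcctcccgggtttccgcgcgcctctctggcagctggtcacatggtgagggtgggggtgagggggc
Of the E2F motifs TTTCCCGC, TTTGGCGC and TTTCGCGC, on both strands, Rb1 held 1 match at +3 and the other 4 promoters held 0, with a match in 1.72% of all promoters. Ccnd3 held 1 match to TGACGTC, the core of the cyclic AMP response element, at -52 (3.22% of all promoters). The GC box GGGCGG was found in all 5, with 6 copies in Rb1, 3 each in Ccnd3 and Ccne1 and 1 each in Cdk4 and Cdkn1b (33.1% of all promoters), and the AP-1 motif TGACTCA in 0 of the 5 (4.63%). These matches describe letters in a window and say nothing of binding in these tissues.

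The E cyclins, which act with Cdk2 after the D cyclins, did not pass either. Ccne1 was above the 40th percentile on 29 of 29 liver and 28 of 29 kidney arrays, at a mean percentile of 52.4 in liver and 45.4 in kidney. Ccne1 had 5.37, 5.46, 4.87 and 5.38 in livers at 500 mg/kg, against 5.11, 5.55, 5.37, 5.70 and 5.18 in controls, a difference of -0.12 (SE 0.13, 95% interval -0.38 to 0.15). The dosed livers lay within the control range except replicate 3, which was below it. In kidney the Ccne1 difference was -0.08 (SE 0.10). Ccne2 exceeded the 40th percentile on 23 of 29 kidney arrays on 1374359_at, and had 4.94, 4.67, 4.57 and 4.66 in kidneys at 500 mg/kg, against 4.76, 4.97, 4.85, 5.22 and 5.13 in controls. All 4 dosed kidneys were below the control mean, and the difference was -0.28 (SE 0.15, 95% interval -0.59 to 0.04, adjusted p = 0.582), or -0.23 (adjusted p = 0.843) without the 2 arrays of high adipose transcripts. In liver both Ccne2 probe sets and in each organ the Cdk6 probe set were too dim to be tested, with Ccne2 between 3.38 and 4.87 and Cdk6 between 3.53 and 4.15 over the liver arrays.

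Cdkn1b, the p27 inhibitor, was bright and steady. On 1373812_at it had 9.36, 9.45, 9.43 and 9.44 in livers at 500 mg/kg, against 9.55, 9.71, 9.40, 9.44 and 9.57 in controls, a difference of -0.11 (SE 0.08, 95% interval -0.27 to 0.05, adjusted p = 0.562). In kidney it was -0.07 (SE 0.05, adjusted p = 0.691), and the kidney within-group SD lay at the 6.73rd percentile of all genes. The dimmer probe set, 1369192_at, differed by -0.26 (SE 0.18) in liver and -0.23 (SE 0.21) in kidney. The 2 probe sets of Cdkn1b went together less closely than those of Ccnd1, with r of 0.593 in liver (permutation p = 0.00063) and 0.497 in kidney (permutation p = 0.00312). After each dose group's mean was taken off, r was 0.576 in liver and 0.468 in kidney.

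Rb1, the target of the D cyclin kinases, had 7.68, 7.85, 8.17 and 7.65 in livers at 500 mg/kg, against 8.08, 7.42, 7.59, 7.82 and 7.44 in controls. The groups overlapped, and the difference was 0.17 (SE 0.15, 95% interval -0.14 to 0.47, adjusted p = 0.677). At 10 mg/kg the liver difference was -0.31 (SE 0.15, unadjusted p = 0.0444, adjusted p = 0.771), with all 4 livers below the control mean. In kidney Rb1 differed by -0.03 (SE 0.06) at 500 mg/kg.

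Myc was the most variable member in liver, with a within-group SD of 0.55 at the 99.0th percentile of all genes tested. It had 8.51, 8.45, 8.39 and 7.54 in livers at 500 mg/kg, against 7.89, 9.23, 8.17, 7.83 and 9.06 in controls, a difference of -0.21 (SE 0.33, 95% interval -0.90 to 0.47). Control livers alone spanned the whole range of the dosed ones apart from the lowest. The largest liver difference was at 1 mg/kg, where the 4 livers had 7.99, 6.77, 8.41 and 7.08, for -0.87 (SE 0.33, unadjusted p = 0.0144, adjusted p = 0.805). In kidney Myc differed by 0.02 (SE 0.18) at 500 mg/kg. With 0 of 11264 liver genes called at 1 mg/kg and 5.83% under an unadjusted p of 0.05, a single member below that unadjusted level is close to the background.

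**Figure D3:**
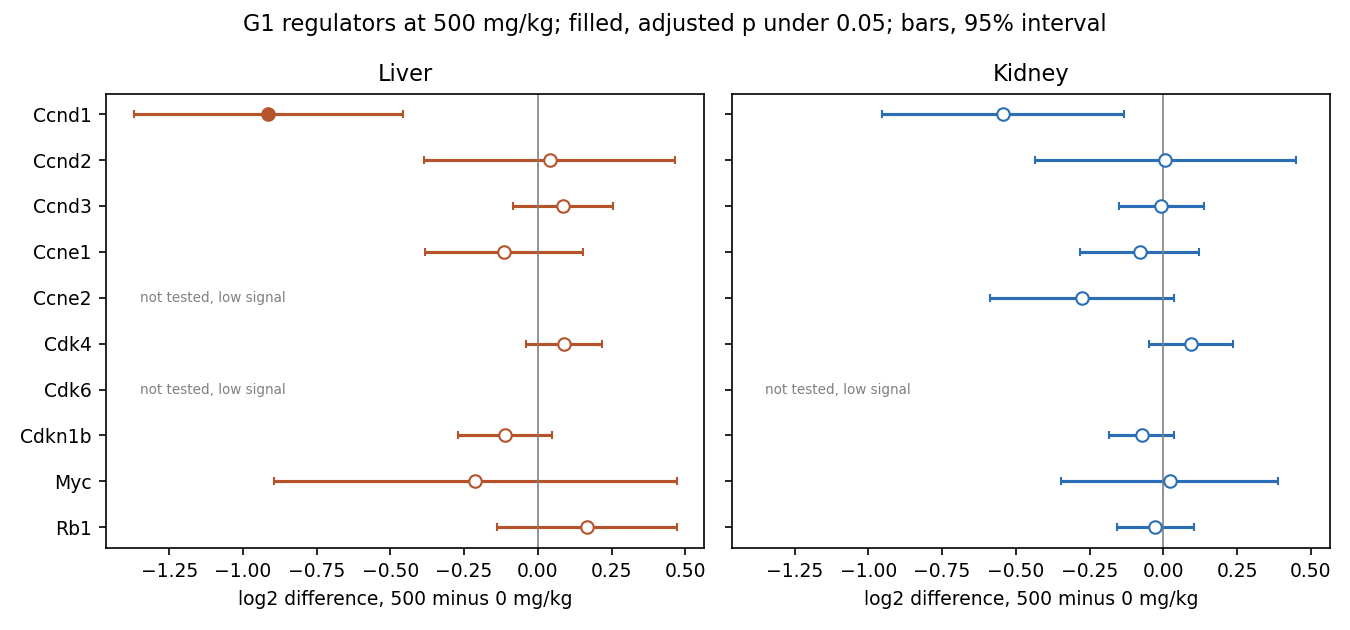
Difference of the 500 mg/kg group from the 0 mg/kg group on the log2 scale (horizontal axis) for each G1 regulator (vertical axis), liver left and kidney right; points are differences of means, bars are 95% intervals of the limma fit and filled points have an adjusted p under 0.05. Ccnd1 in liver, at -0.91, is the single filled point, and the interval of kidney Ccnd1, -0.95 to -0.13, is the other one that excludes 0.

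Over the members as a group there was no common direction. In liver at 500 mg/kg, 4 of 8 members had values below 0 with a median of -0.04, against 48.2% below 0 and a median of 0.01 over all genes tested. In kidney 6 of 9 were below 0 with a median of -0.03, against 44.1% and a median of 0.02 over all genes, and 5 of 9 with a median of -0.03 without the 2 arrays of high adipose transcripts. At 0.1, 1, 10, 100 and 300 mg/kg, 0 members were called in either organ, where 0 genes were called at 0.1 to 100 mg/kg and 0.0266% of liver and 0.0268% of kidney genes at 300 mg/kg. At an unadjusted p under 0.05 the liver members numbered 0 of 8 at 0.1 mg/kg (4.1% of all genes), 1 at 1 mg/kg (5.83%), 1 at 10 mg/kg (6.4%), 0 at 100 mg/kg (3.68%) and 0 at 300 mg/kg (7.87%). The kidney members numbered 0 of 9 at 0.1 mg/kg (8.15%), 1 at 1 mg/kg (9.34%), 0 at 10 mg/kg (6.27%), 1 at 100 mg/kg (4.8%) and 0 at 300 mg/kg (5.74%). Between 500 and 300 mg/kg in liver, Ccnd1 and Rb1 were under this unadjusted level, beside 5.74% of all genes.

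Between the untreated organs the difference was larger than the range of dose group means in either organ for 4 of the 8 members compared. These were Myc, Rb1, Ccnd3 and Cdkn1b, and not Ccnd1, Ccnd2, Ccne1 and Cdk4. The share of all genes for which this holds was not computed. Myc had 7.89, 9.23, 8.17, 7.83 and 9.06 in control livers, against 5.43, 5.62, 5.78, 5.49 and 5.27 in control kidneys. The organs were far apart on every array, and the difference of liver minus kidney was 2.92 (SE 0.26, adjusted p = 2.53e-14), or 7.55-fold. Ccnd1 was lower in liver by -1.22 (SE 0.21), with 5 of 5 control livers (9.03 to 10.08) below every control kidney (10.69 to 11.12). Such separation was common, since control livers and kidneys did not overlap for 63.4% of all genes (35.4% lower in liver and 28% higher). Rb1 was lower in liver by -0.78 (SE 0.11), Ccnd3 by -0.53 (SE 0.07) and Cdkn1b by -0.52 (SE 0.06). Ccne1 was higher in liver by 0.29 (SE 0.11, adjusted p = 0.0139), with overlapping arrays. Cdk4 (-0.03, SE 0.06) and Ccnd2 (-0.02, SE 0.21) were not called. Of the 8 members tested 6 were called, beside 76.1% of all genes, so this share is near the background. The sources used here do not state whether RMA was run on both organs at once, and a level set across them depends on that.

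Same-numbered liver and kidney arrays of a dose went together for 1 D cyclin. No label says which liver and kidney came from 1 rat, and this comparison was chosen after the data were seen. As deviations from the mean of their own dose group, Ccnd2 values of same-numbered livers and kidneys correlated with Pearson's r of 0.772 and Spearman's rho of 0.747 over 29 pairs. Permuting kidney arrays within doses gave a permutation p of 8e-05 for r (adjusted over the 8 members, 0.00064) and 7e-05 for rho (adjusted, 0.00056). Without the 2 pairs farthest from the median liver deviation r was 0.708, and without the 2 pairs that hold the kidney arrays of high adipose transcripts it was 0.756. At 300 mg/kg, for example, Ccnd2 had 7.50, 8.50, 8.40 and 8.35 in livers and 7.48, 8.62, 8.60 and 8.56 in kidneys, so that replicate 1 was low in both. An r at least this high was found for 0.422% of 10665 genes, and the median r over all genes was 0.0879.

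For Cdkn1b the same measure gave r of 0.490 (permutation p = 0.00809, adjusted 0.0324) and rho of 0.479 (permutation p = 0.0138, adjusted 0.0550), so that r passed the adjustment and rho did not. For Ccnd1 it gave r of 0.221 (permutation p = 0.292) and for Myc -0.0568 (permutation p = 0.758). The other 4 members lay between -0.193 for Ccnd3 and 0.0759 for Ccne1, with adjusted p of 0.584 or more. Over all genes, 27 of 29 livers correlated best with the kidney of their own number within their dose, with a median r over genes of 0.159 for same-numbered arrays and -0.0369 for others.

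**Figure D4:**
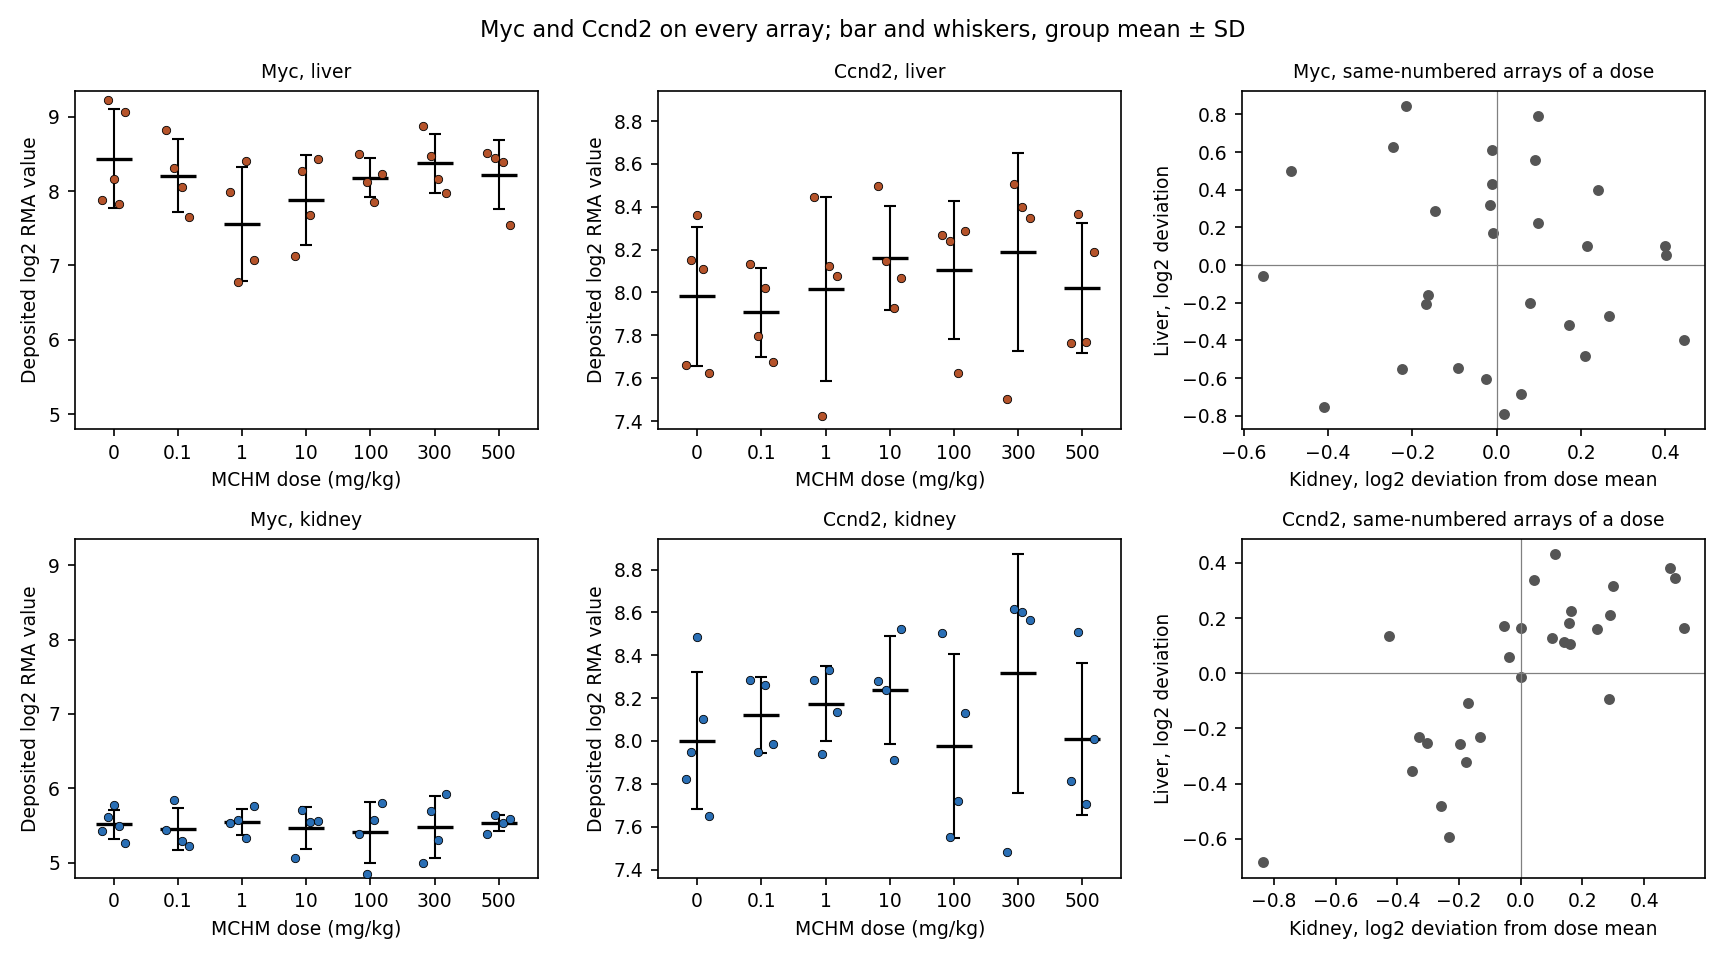
Left and middle: deposited log2 values of Myc and Ccnd2 on every array by MCHM dose in mg/kg, liver above and kidney below, with group means (bars) and SD (whiskers). Right: liver deviation from the dose mean (vertical axis) against the kidney deviation (horizontal axis) of same-numbered arrays, Myc above and Ccnd2 below, both on the log2 scale. Myc is higher in liver than in kidney at every dose, and the 29 Ccnd2 pairs follow each other (r of 0.772) while those of Myc do not (r of -0.0568).

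The genes whose values followed Ccnd1 most closely over the 29 arrays of an organ were named by Pearson's r, as a description, since arrays share dose and tissue composition. In liver these were Pkp2, a desmosomal protein (r of 0.826), Qpct, which forms pyroglutamate ends on peptides (0.768), Serpind1, heparin cofactor II (0.765), Abca8 (0.762) and the ribonuclease Rnase4 (0.747). In kidney they were Bhlhe41, a repressor of the circadian clock (0.809), the membrane adaptor ankyrin Ank3 (0.769), the carnitine and organic cation carrier Slc22a4 (0.737), Mfsd4b2l1 (0.728) and Tef, a clock-controlled transcription factor (0.712). After each dose group's mean was taken off, the highest in liver were Manea (0.794), Mettl3 (0.748), Dpp10 (0.734), Plekha1 (0.722) and Xrn2 (0.716), and in kidney Susd3 (0.779), Bhlhe41 (0.760), Tef (0.736), Fam204a (0.730) and Fam168a (0.726). Bhlhe41 and Tef were thus among the 5 nearest in kidney both ways, and none of the 5 nearest in liver was. Without the 2 kidney arrays of high adipose transcripts Bhlhe41 and Tef ranked 1 and 4 by r (0.748 and 0.686) and 6 and 8 after group means (0.695 and 0.690), and Slc22a4 ranked 17 (r of 0.631). Of the members, Rb1 ran most against Ccnd1 in liver (r of -0.564, and -0.501 after group means).

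Partners and targets of the G1 machinery were read from lists, which were chosen with earlier results of these data known. Of 20 further kinase partners and inhibitors, 18 were tested in liver at 500 mg/kg and 0 were called. Their median was 0.02, and those with the smallest p were Ccnh, a subunit of the kinase that activates cyclin-dependent kinases, at 0.18 (adjusted p = 0.223), and the Rb1 relative Rbl2 at -0.21 (adjusted p = 0.25). Of 10 E2F and dimer partner genes 7 were tested, 0 were called and the median was 0.05, with E2f5 at 0.32 (adjusted p = 0.398) and E2f1 at -0.20 (adjusted p = 0.510). Of 24 E2F target and DNA replication genes 17 were tested and 0 were called at 500 mg/kg, with a median of -0.07. In the dose trend 1 was called, beside 1.85% of all genes. This was Ccna2 (cyclin A2), which fell by 0.13 per dose step (limma adjusted p = 0.0400).

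Of 20 listed genes of mitosis, further down the cycle, 16 were tested in liver. At 500 mg/kg 1 was called, beside 0.959% of all genes, and in the dose trend 4 were called, beside 1.85% of all genes. Nusap1, a spindle protein, fell by 0.70 at 500 mg/kg (adjusted p = 0.0245). In the trend Mki67, the proliferation marker, fell by 0.16 per step (adjusted p = 0.0242), the mitotic kinase Cdk1 by 0.14 (adjusted p = 0.0229), the mitotic kinesin Kif20a by 0.10 (adjusted p = 0.0262) and Nusap1 by 0.10 (adjusted p = 0.0129). All 16 had values below 0 at 500 mg/kg, with a median of -0.43, against 48.2% of all genes below 0. The list was chosen with earlier results known, and its genes can rise and fall together on an array. Counts and medians of the list are therefore a description and not a test. The mean of these 16 genes was 5.02 to 5.18 on the 4 livers at 500 mg/kg and 5.21 to 6.01 on the 5 control livers. These groups did not overlap but lay close together, and single livers at 10, 100 and 300 mg/kg lay as low (5.11, 5.07 and 5.10). Among single liver genes, 2.89% did not overlap with controls in the lower direction at 500 mg/kg. In kidney 18 were tested and 0 were called at 500 mg/kg, beside 0.0268% of all genes. At that dose 17 were below 0, against 44.1% of all genes, with a median of -0.30. The count below 0 and this median were the same without the 2 arrays of high adipose transcripts. At an unadjusted limma p under 0.05 there were 12 of the 18, beside 9.58% of all genes. Without those 2 arrays there were 8, beside 797 of 11194 genes. The mean of the 18 genes was 5.63 to 5.80 on the 4 kidneys at 500 mg/kg and 5.83 to 6.16 on the 5 control kidneys. These groups did not overlap in kidney either, but lay close together, and replicate 3 at 10 mg/kg was as low (5.80). The mean at 100 mg/kg, 6.38, was above that of the controls, 6.06. Among single kidney genes, 1.13% did not overlap with controls in the lower direction at 500 mg/kg. The share for means of several genes, the measure used for the list, was not computed in either organ.

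Of 25 genes on the signalling routes to Ccnd1, 23 were tested in liver at 500 mg/kg. Of these 1 was called, beside 0.959% of all genes. Ets1, a transcription factor downstream of growth factor signalling, fell by 0.29 (adjusted p = 0.0399) and also fell in the dose trend, by 0.04 per step (adjusted p = 0.0205). In that trend 1.85% of all genes were called. The list median at 500 mg/kg was -0.14, with 19 of 23 below 0, against 48.2% of all genes. Hgf, the hepatocyte growth factor, differed by -0.43 (adjusted p = 0.229) and its receptor Met by -0.23 (adjusted p = 0.530). Of 11 Myc network factors 9 were tested and 0 were called at 500 mg/kg, while Mlx rose in the trend by 0.04 per step (adjusted p = 0.0283). Of 15 Myc targets 14 were tested and 0 were called, with a median of 0.11 and 11 above 0; the smallest p were those of the lactate dehydrogenase gene Ldha at 0.10 (adjusted p = 0.464) and the nucleolar gene Fbl at 0.19 (adjusted p = 0.513). In kidney 0 genes of these lists were called at 500 mg/kg or in the trend.

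**Figure D5:**
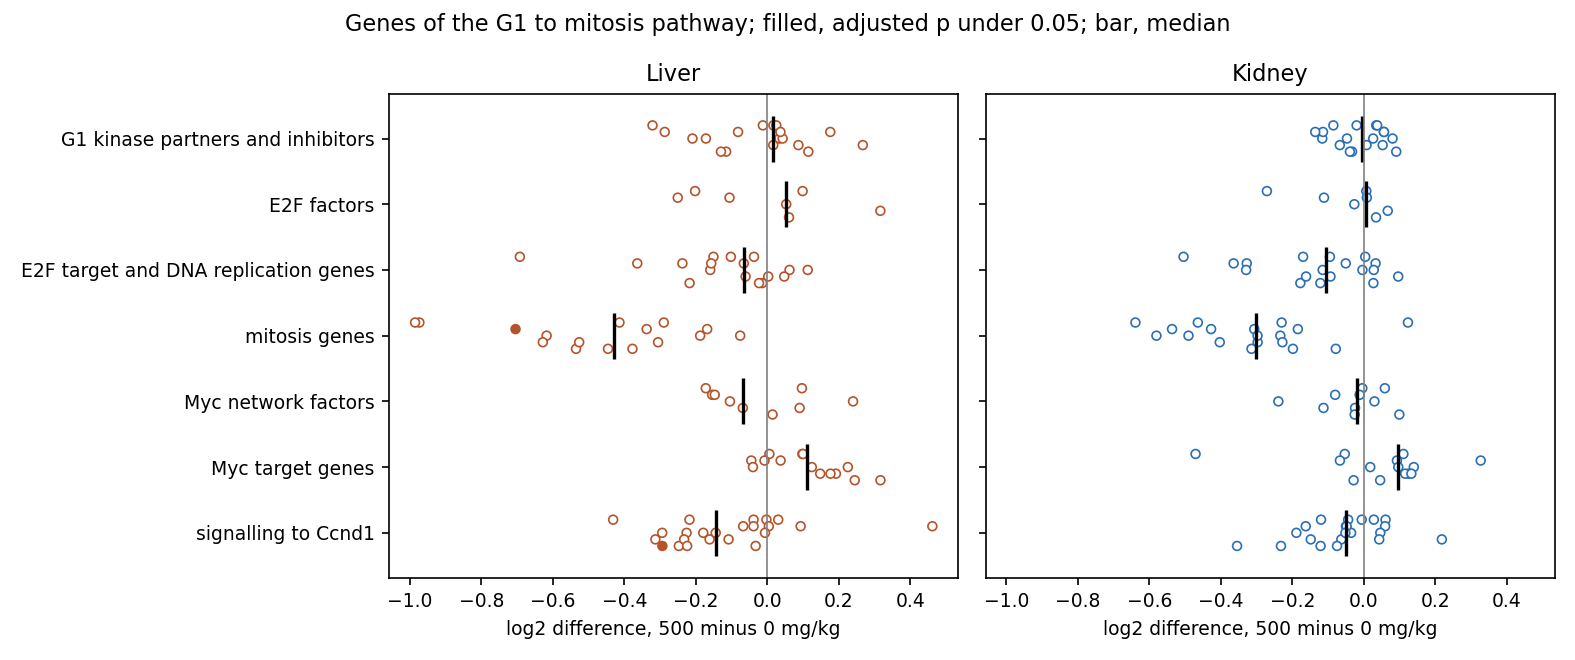
Difference of the 500 mg/kg group from the 0 mg/kg group on the log2 scale (horizontal axis) for the tested genes of 7 lists around the G1 regulators (vertical axis), liver left and kidney right; each point is 1 gene, the bar is the list median and filled points have an adjusted p under 0.05. In liver Nusap1 (-0.70) and Ets1 (-0.29) are filled, the mitosis genes have a median of -0.43, and in kidney 0 points are filled.

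Of the markers of other cell types, 1 macrophage and lymphocyte marker was called in liver at 500 mg/kg, beside 0.959% of all genes. Of 12 macrophage and lymphocyte markers 10 were tested at 500 mg/kg, 7 were below 0 with a median of -0.27, and Cd74, the class II invariant chain, fell by 0.59 (adjusted p = 0.0373). In the trend the macrophage genes Csf1r and Adgre1 fell by 0.04 and 0.07 per step (limma adjusted p = 0.0262 and 0.0159), beside 1.85% of all genes called. The mean of these 10 markers was 7.17 to 7.61 on livers at 500 mg/kg and 7.43 to 7.62 on control livers, and the groups overlapped. Of 7 stellate and fibroblast markers 0 were called (median -0.24), the smallest p being those of the collagens Col1a2 at -0.42 (adjusted p = 0.189) and Col3a1 at -0.24 (adjusted p = 0.298). Of 6 tested endothelial markers 0 were called (median -0.10), with Tie1 at -0.36 (adjusted p = 0.124) and Kdr at -0.11 (adjusted p = 0.521). Of 3 tested cholangiocyte markers 0 were called (median -0.20), with Epcam at 0.16 (adjusted p = 0.550) and Krt19 at -0.20 (adjusted p = 0.689). Of 5 tested hepatocyte markers 1, Apoa1, fell by 0.30 (adjusted p = 0.0245), also in the trend by 0.04 per step (adjusted p = 0.0400), and Alb differed by -0.01. The mean of these 5 markers was 13.98 to 14.03 on livers at 500 mg/kg and 14.06 to 14.16 on control livers. These groups did not overlap, beside 2.89% of single liver genes not overlapping in the lower direction. Of 5 tested kidney tubule markers 0 were called in liver, with Slc34a1 at 0.27 (adjusted p = 0.361) and Aqp2 at -0.15 (adjusted p = 0.764). Of 5 tested adipose markers 0 were called, with Cidec at 0.27 (adjusted p = 0.127) and Plin1 at 0.27 (adjusted p = 0.201). The part of cell composition in the Ccnd1 difference was not tested.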

How the data were processed

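Liver and kidney RNA of 58 rat samples was measured with 1 array each. The deposited values are log2 signals, 1 for each probe set of an array, and come from RMA per the submitters' processing notes, which give no version. They ran from 1.75 to 14.85 with 0 missing, which shows the log2 scale. Arrays have no read depth, so their number limits precision. Gene names come from the platform annotation, and 57 control probe sets were left out.

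Differences were fitted in limma 3.58.1 under R 4.3.3 (lmFit, eBayes with an intensity trend) over all genes of an organ, and over 10665 genes for both organs, with Benjamini-Hochberg adjustment, two-sided, called at 0.05. Group values are mean ± SD. The trend used the dose rank. Of 2 or more probe sets the brightest stood for a gene. On simulated data a log2 change of 1 was called for 98.5% of 66 changed genes in the liver 500 mg/kg comparison of 11264 genes. The changed genes were drawn from all genes tested, whose median within-group SD in liver was 0.15. Ccnd1, Ccnd2 and Myc had 0.36, 0.34 and 0.55 in liver, so this share does not carry over to them. The members and lists were chosen with earlier results of these data known. The text names all members, each list gene called at 300 or 500 mg/kg or in the trend or else the 2 of smallest p in liver (Hgf, Met and Alb were added after their values were seen), and the 5 genes nearest Ccnd1. The labels call the arrays biological replicates. Replicate numbers did not pair arrays across doses (mean r of -0.00683 in liver and 0.0305 in kidney). Correlations used 100000 permutations. Alternatives covered the filter, probe set choice, eBayes settings, array weights, quantile normalization, the replicate number as a block, the groups in the fit, a dose term linear in mg/kg, and leaving out arrays 1 at a time.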

Additional observations from a re-analysis of the deposited data

Results flagged for a closer look

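Arrays that stood apart from the rest of their dose group were found in 8 of 119 groups of arrays (6.72%), where chance gives about 1 in 20. For Ccnd1 these were the liver at 0.1 mg/kg, replicate 4, at 10.40 (the others 9.70 to 9.82) and the liver at 500 mg/kg, replicate 2, at 8.34 (the others 8.90 to 8.96). For Ccnd2 they were the liver at 100 mg/kg, replicate 3, at 7.63 (the others 8.24 to 8.29), the liver at 300 mg/kg, replicate 1, at 7.50 (the others 8.35 to 8.50) and the kidney of the same dose and number, at 7.48 (the others 8.56 to 8.62). For Ccne1 the liver at 500 mg/kg, replicate 3, was at 4.87 (the others 5.37 to 5.46) and the kidney at 300 mg/kg, replicate 1, was at 5.12 (the others 4.94 to 4.95). For Myc the liver at 500 mg/kg, replicate 4, was at 7.54 (the others 8.39 to 8.51). The 2 livers flagged for Ccnd1 were also the liver arrays least like their group over all probe sets. Their correlations with the group median were 0.9949 and 0.9955, where the other liver arrays had 0.9960 or more.

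Cdk4 at 0.1 mg/kg had differences from controls of opposite sign in the organs, but neither was called and both intervals span the 2 signs. The difference was -0.09 in liver (limma interval -0.22 to 0.04) and 0.10 in kidney (-0.04 to 0.25). All 4 livers lay below and all 4 kidneys above their control mean, in part by very little. The highest liver was at 8.846 against a control mean of 8.853, and the lowest kidney at 8.8803 against 8.8800. The liver minus kidney difference of effects was -0.19 and was not tested. The share of all genes with such a pattern is not given.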

How the results depend on the processing

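Of 3565 alternative values for 160 member results, 3548 stayed on their side of the threshold, 15 lost a call, 2 gained one and 0 reversed a call. The call of Ccnd1 in liver at 500 mg/kg (-0.91) was lost when a gene's probe sets were averaged (-0.78, adjusted p = 0.0702), without the intensity trend (-0.91, adjusted p = 0.0607), with robust eBayes (-0.91, adjusted p = 0.0728), with only the compared groups (-0.91, adjusted p = 0.0653) and with the replicate number as a block (-0.82, adjusted p = 0.130), where the members called became 0. Leaving out an array gave -0.77 to -1.08, and 8 of 9 such fits lost the call (-0.77 to -0.97), so that 0 members were called. The members called in the liver dose trend became 1, Ccnd1, when the trend was linear in mg/kg (7.22% of all genes called), and 1 without the first control liver (adjusted p = 0.0233, 1.99% of all genes called). Ccne1 lost its difference between the untreated organs without the fourth control liver (0.21, adjusted p = 0.0802) or the third control kidney (0.21, adjusted p = 0.0845). The block changed no other member's call. Calls over all genes ranged from 33 to 263 in liver at 500 mg/kg, 80 to 813 in the liver trend, 0 to 69 in kidney at 500 mg/kg, 0 to 185 in the kidney trend and 4 to 85 in the contrast of organs at 500 mg/kg. Chosen after the data were seen were the fit without 2 kidney arrays of high adipose transcripts and a random block of same-numbered liver and kidney arrays (correlation 0.0814), and neither changed a member's call. The number of arrays limits small effects: a simulated log2 change of 0.5 was called for 68.7% of 67 genes in the liver 500 mg/kg comparison. These genes were drawn from all genes tested, so the share does not carry over to Ccnd1, Ccnd2 and Myc, which varied more than most.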
